A study of Mus musculus with 12 samples.

Results

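The 9 genes followed here are those whose products build or break down liver glycogen, compared between livers that lacked PPARα and wild-type controls: *Pgm1*, *Ugp2*, *Gys2*, *Gbe1*, *Pygl*, *Phka2*, *Phkb*, *Phkg2* and *Ppp1r3c*. They were chosen by symbol as the enzymes of hepatic glycogen turnover with the regulators that switch them, and all 9 were measured, out of 19938 genes on the array. Each of the 9 had exactly 1 probe set that named it alone. RefSeq places them on 9 different chromosomes, *Phka2* on the X chromosome. Liver RNA came from 12 mouse pups killed at postnatal day 2 (P2), 6 *Ppara*-/- and 6 *Ppara*+/+, with 3 males and 3 females in each genotype and 1 Affymetrix mouse gene array per pup. Heterozygous parents were crossed, so that pups of both genotypes were carried and suckled by heterozygous dams, and no drug or test diet was given. The pups of each genotype came from several litters, and the labels do not say which were littermates. The p-values therefore treat the 12 pups as independent and take no account of litter. The *Ppara*-/- pups lacked the receptor in every tissue, so an effect that arose outside the liver cannot be told apart from one within it. The sample labels name the strain SV129, whereas the methods of the study give a C57BL/6 background. The values are log2 signals, on which 1 unit is a 2-fold change, and a higher signal of one probe set than of another does not mean more transcript.

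Glycogen is a branched polymer of glucose. To build it, glucose 6-phosphate is turned into glucose 1-phosphate by phosphoglucomutase (*Pgm1*), joined to UTP as UDP-glucose by UDP-glucose pyrophosphorylase (*Ugp2*), added to a growing chain by the liver glycogen synthase (*Gys2*) and branched by the branching enzyme (*Gbe1*). Liver glycogen phosphorylase (*Pygl*) takes glucose 1-phosphate off the chain ends once phosphorylase kinase, a complex with α (*Phka2*), β (*Phkb*) and γ (*Phkg2*) subunits, has phosphorylated it, and *Ppp1r3c* brings protein phosphatase 1 to glycogen, where it favours synthesis. The fetal liver stores glycogen late in gestation and draws on it around birth, before milk fat takes over as fuel.

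In *Ppara*-/- livers at P2 the genes of the steps that make UDP-glucose and the chain rose: *Ugp2* by 1.23-fold and *Gys2* by 1.17-fold (6 pups per genotype, adjusted p = 0.0048 and 0.028 from limma). The other 7 genes did not pass the test in either direction. Thus 2 of the 9 genes rose and none fell, where 1.99% of all genes rose, 1.12% fell and 3.11% changed either way at the same threshold, an adjusted p under 0.05 over all probe sets. Without adjustment 4 of the 9 had a p under 0.05, 2 higher and 2 lower (*Pgm1* and *Ppp1r3c*), where 17.2% of all genes did. The median log2 difference of the 9 genes was 0.05 and that of all genes -0.01; 6 of the 9 lay above 0, as did 45.1% of all genes. None of the 9 reached a change of 1.3-fold, and for the 7 genes that did not pass the 95% intervals ran no lower than -0.29 and no higher than 0.21 on the log2 scale. The members had been picked with earlier results of these arrays known. All 9 were read well above the dim end of the array, with mean signals between the 74.2 and 96.8 percentile of all probe sets.

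**Figure D1:**
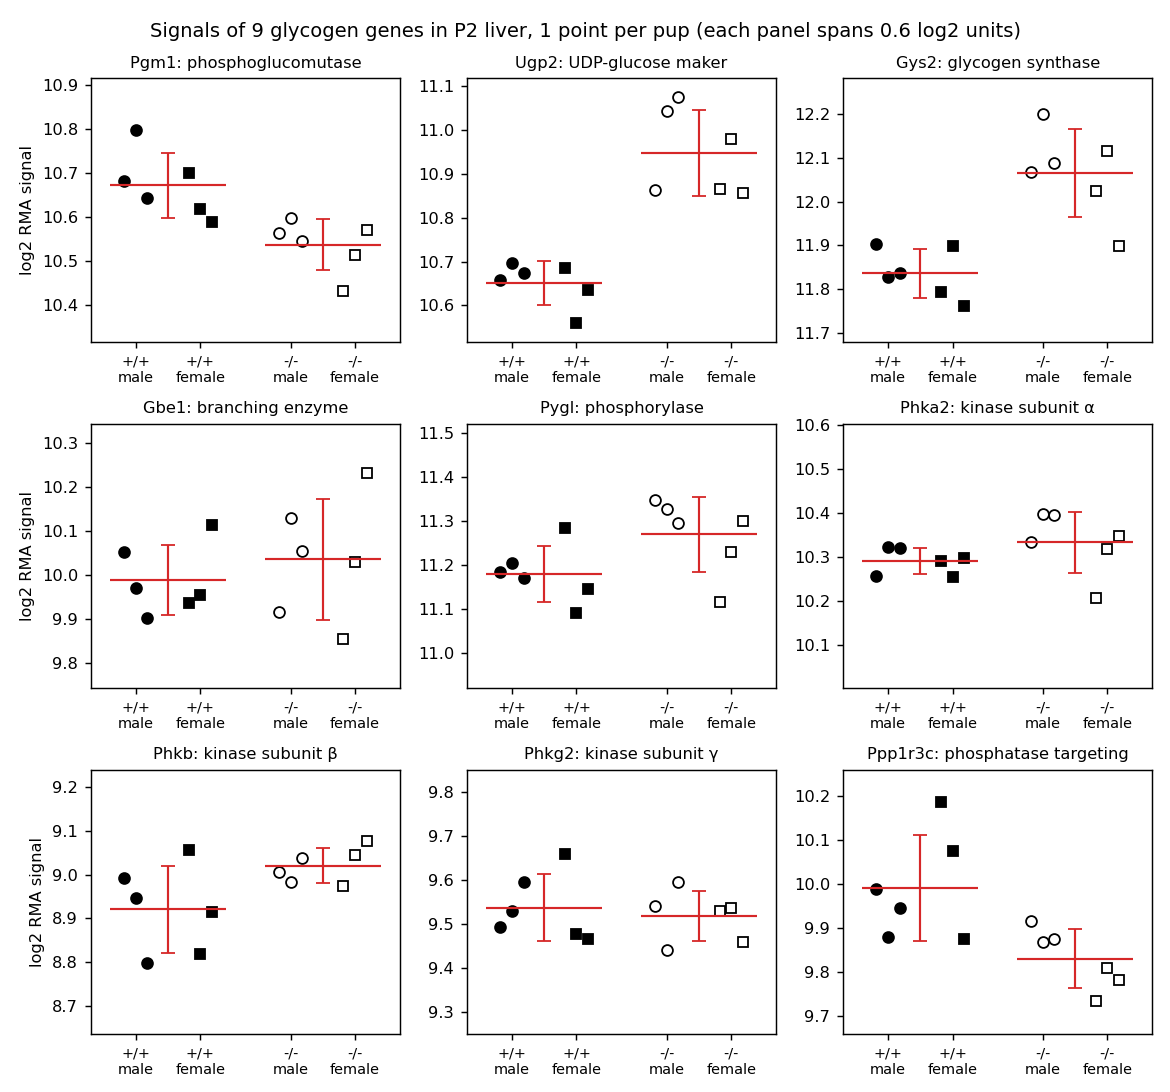
Log2 RMA signal (vertical axis) of the 9 glycogen genes, 1 point per pup, by genotype and sex; filled points are *Ppara*+/+ and open points *Ppara*-/-, circles males and squares females, and red lines give mean ± SD of the 6 pups of a genotype. All 6 *Ppara*-/- points of *Ugp2* (10.86 to 11.07) lie above all 6 *Ppara*+/+ points (10.56 to 10.70), while the other 8 genes overlap.

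The targeted gene and the cells of the samples were examined first. *Ppara* itself stood between 10.21 and 10.33 in the 6 *Ppara*-/- livers and between 10.98 and 11.27 in the 6 *Ppara*+/+ livers, a log2 difference of -0.89. Array medians ran from 7.16 to 7.20, so the *Ppara* probe set still read well above them in *Ppara*-/- livers. Its fall of 1.85-fold does not by itself show the loss of the receptor. The hepatocyte markers identify the tissue as liver: the 13 measured of 14 averaged 13.47 to 13.50 in the *Ppara*-/- arrays and 13.44 to 13.50 in the *Ppara*+/+ arrays, none of them passed, and their median log2 difference was 0.02. The markers of other cells had larger differences, although none of their genes passed. All 12 measured erythroid markers, out of 15, were lower (mean level 11.14 to 11.51 in *Ppara*-/-, 11.23 to 11.63 in *Ppara*+/+), all 13 Kupffer cell markers were higher (10.40 to 10.55 against 10.17 to 10.51) and all 12 markers of liver endothelium were higher (10.24 to 10.35 against 10.09 to 10.24). Markers of pancreatic acinar cells, 9 measured of 10, reached 9.52 in *Ppara*-/- replicate 6 and 8.72 in *Ppara*-/- replicate 10, and 6.61 to 8.09 in *Ppara*+/+ arrays. The 11 markers of skeletal muscle ran from 6.34 to 7.42 and from 6.25 to 6.99. The part of these cells in the differences described here was not tested; in whole liver, fewer cells of a type and less RNA per cell cannot be told apart.

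*Pgm1*, the entry step from glucose 6-phosphate, had a lowest, median and highest signal of 10.43, 10.55 and 10.60 in *Ppara*-/- livers and of 10.59, 10.66 and 10.80 in *Ppara*+/+ livers. In all, 5 of the *Ppara*-/- pups lay below every *Ppara*+/+ pup, and the ranges overlapped only through *Ppara*-/- replicate 5 and *Ppara*+/+ replicate 9. The log2 difference was -0.13 (SE 0.0408, 95% interval -0.22 to -0.05), short of the threshold (adjusted p = 0.136). The gene on chromosome 4 meant here was earlier called *Pgm2*; the gene on chromosome 5 that carries the name *Pgm2* now, a phosphopentomutase, had the opposite sign, 0.19 (SE 0.0494, adjusted p = 0.079).

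*Ugp2*, the maker of UDP-glucose, was the member with the smallest p. Its *Ppara*-/- values were 10.86, 10.92 and 11.07 at the lowest, median and highest pup, and its *Ppara*+/+ values 10.56, 10.67 and 10.70. Every *Ppara*-/- pup lay above every *Ppara*+/+ pup, a pattern that 2.88% of all genes showed. The means were 10.95 ± 0.10 and 10.65 ± 0.05 (SD, n = 6 each), a log2 difference of 0.30 (SE 0.0457, 95% interval 0.19 to 0.40). The test was passed with any single array left out, at a log2 difference of 0.27 to 0.32 and an adjusted p of 0.0039 to 0.017. In the exact two-sided Mann-Whitney test its p of 0.0022 was the smallest that 6 against 6 pups allow, yet after adjustment it did not pass (0.0691), nor did any other gene. *Pgm1* and *Ugp2* act one after the other, and within each array the signal of *Ugp2* minus that of *Pgm1* was higher in *Ppara*-/- pups, by 0.43 on average. That difference of signals ran from 0.28 to 0.53 in *Ppara*-/- and from -0.10 to 0.05 in *Ppara*+/+ pups, with no overlap. It was not tested and adds no independent result, since *Ugp2* alone separated the genotypes and *Pgm1* had the opposite sign. The signal of *Gys2* minus that of *Gbe1* did overlap, at 1.67 to 2.17 in *Ppara*-/- and 1.65 to 1.95 in *Ppara*+/+ pups.

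The sequences just before the start sites of these neighbouring steps, of the phosphorylase and of *Ppp1r3c* are printed here side by side. Among the genes shown only *Ugp2* passed the test of genotype. The sequences come from RefSeq on GRCm38.p6 and hold the 250 bases before the annotated start, 5′ to 3′ on the strand of the gene. Of the 9 genes 8 had an entry in the RefSeq table, 1 with 2 start sites (*Ugp2*, of which the outer is shown). For *Gys2* none was at hand. Capitals mark AGGTCA (the half-site that nuclear receptors such as PPARα bind), CACGTG (the E-box) and CCAAT, on either strand.
Ugp2, chr11:21371268-21371517, minus strand: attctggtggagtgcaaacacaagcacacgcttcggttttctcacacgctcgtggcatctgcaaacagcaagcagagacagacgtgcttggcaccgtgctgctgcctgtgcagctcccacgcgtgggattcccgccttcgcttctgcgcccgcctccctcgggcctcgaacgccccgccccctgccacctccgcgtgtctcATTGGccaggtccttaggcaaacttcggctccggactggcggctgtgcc
Pgm1, chr4:99929201-99929450, plus strand: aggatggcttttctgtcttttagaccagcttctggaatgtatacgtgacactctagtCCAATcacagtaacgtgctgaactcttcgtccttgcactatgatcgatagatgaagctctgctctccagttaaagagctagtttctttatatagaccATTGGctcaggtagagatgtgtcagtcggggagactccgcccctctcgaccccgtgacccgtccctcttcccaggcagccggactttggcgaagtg
Pygl, chr12:70227684-70227933, minus strand: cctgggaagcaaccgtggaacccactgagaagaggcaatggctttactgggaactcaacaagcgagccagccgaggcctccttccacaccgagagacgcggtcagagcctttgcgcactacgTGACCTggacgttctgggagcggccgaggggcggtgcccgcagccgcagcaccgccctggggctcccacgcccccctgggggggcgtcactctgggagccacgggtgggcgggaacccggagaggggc
Ppp1r3c, chr19:36736605-36736854, minus strand: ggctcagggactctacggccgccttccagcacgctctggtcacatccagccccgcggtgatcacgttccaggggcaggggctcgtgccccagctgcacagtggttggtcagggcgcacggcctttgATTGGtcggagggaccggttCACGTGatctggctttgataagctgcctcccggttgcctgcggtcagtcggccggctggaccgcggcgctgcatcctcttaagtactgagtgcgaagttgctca

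The window of *Ugp2* held CCAAT on the reverse strand at positions -49 to -45, counted back from the start, and no AGGTCA. *Pgm1* held CCAAT at -193 to -189 and, on the reverse strand, at -96 to -92, and TATAAA on the reverse strand at -108 to -103 (12.4% of all windows on either strand). *Pygl* was the only 1 of the 8 genes with AGGTCA in these windows, on the reverse strand at -128 to -123, where 14.0% of all 32851 promoter windows of that length held it on either strand. A direct repeat of AGGTCA with 1 base of any kind between the copies, the form PPARα binds, was in none of the windows of the members and in 0.0335% of all. The palindromic cAMP response element was in none of them either and in 1.55% of all, while GGGCGG, the GC box, was in the windows of 6 of the 8 genes and in 32.7% of all. *Ppp1r3c* held CACGTG, which reads alike on both strands, at -104 to -99 (6.02% of all windows) and CCAAT on the reverse strand at -124 to -120 (33.8% of all for CCAAT on either strand). These letters describe the windows and are not measured binding sites.

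*Gys2*, the liver isoform of glycogen synthase, ran from 11.90 over a median of 12.08 to 12.20 in *Ppara*-/- livers and from 11.76 over 11.83 to 11.90 in *Ppara*+/+ livers. Of the 6 *Ppara*-/- pups 5 lay above every *Ppara*+/+ pup, and the ranges met only where *Ppara*-/- replicate 12 (11.90) lay just under *Ppara*+/+ replicate 1 (11.90). The log2 difference was 0.23 (SE 0.0472, 95% interval 0.12 to 0.33). Its call depended on single arrays: it was lost on leaving out any 1 of 9 arrays, *Ppara*-/- replicate 4, 5, 6, 10 or 11 or *Ppara*+/+ replicate 1, 2, 3 or 9, with adjusted p from 0.0518 to 0.0755, although the log2 difference then stayed between 0.21 and 0.24. It held without *Ppara*-/- replicate 12 (adjusted p = 0.0148) and without *Ppara*+/+ replicate 7 (0.0371) or 8 (0.0271). Without both *Ppara*-/- arrays high in pancreatic markers, replicates 6 and 10, the adjusted p from limma was 0.101 for *Gys2* and 0.0291 for *Ugp2*. The log2 differences were then 0.23 and 0.28, against 0.23 and 0.30 with all 12 arrays.

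*Gbe1*, which adds the branches, spread most widely in *Ppara*-/- pups, with an SD of 0.14 against 0.08 in *Ppara*+/+. Its signals ran from 9.85 over 10.04 to 10.23 and from 9.90 over 9.96 to 10.11, so that the *Ppara*+/+ range lay inside the *Ppara*-/- range. The log2 difference was 0.05 (SE 0.0664, 95% interval -0.10 to 0.19, adjusted p = 0.80). It ranged from 0.0064 without *Ppara*-/- replicate 12 to 0.09 without *Ppara*-/- replicate 10.

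**Figure D2:**
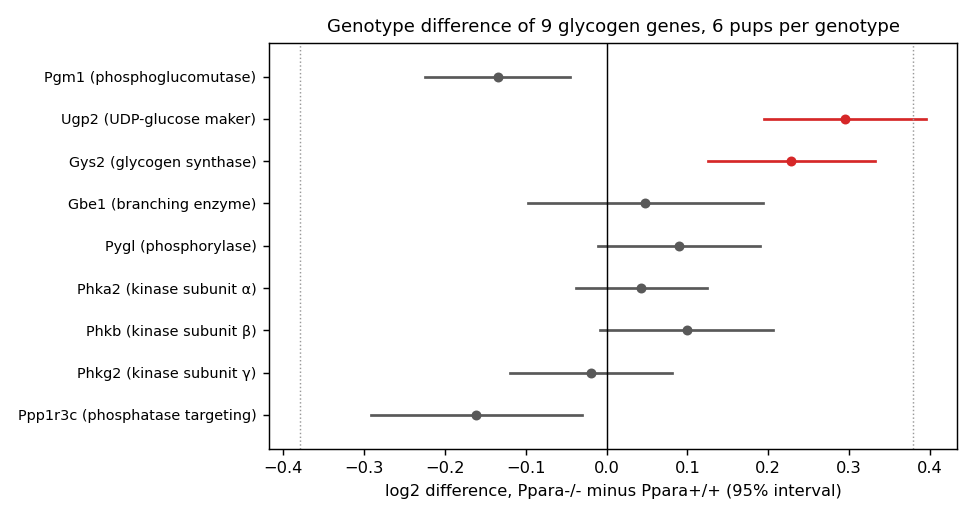
Log2 difference between genotypes (horizontal axis, *Ppara*-/- minus *Ppara*+/+) for the 9 genes, with 95% intervals from limma; red marks an adjusted p under 0.05 and dotted lines a change of 1.3-fold. *Ugp2* (0.30) and *Gys2* (0.23) lie above 0, *Pgm1* (-0.13) and *Ppp1r3c* (-0.16) have intervals below 0 without passing over all probe sets, and all points lie inside the dotted lines.

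On the side of breakdown, *Pygl* had signals of 11.11, 11.30 and 11.35 at the lowest, median and highest *Ppara*-/- pup and of 11.09, 11.18 and 11.28 in *Ppara*+/+. Of the *Ppara*-/- pups 4 exceeded all *Ppara*+/+ pups, while *Ppara*-/- replicate 10 lay below 5 of the 6 *Ppara*+/+ pups. The log2 difference was 0.09 (SE 0.0458, 95% interval -0.01 to 0.19, adjusted p = 0.39). Within each array the signal of *Gys2* minus that of *Pygl* ran from 0.60 to 0.91 in *Ppara*-/- and from 0.51 to 0.81 in *Ppara*+/+ pups, so the genotypes overlapped in this difference of synthase and phosphorylase, whose mean was 0.14 higher in *Ppara*-/-.

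The subunits of phosphorylase kinase differed little. *Phka2*, the regulatory α subunit of liver, had signals of 10.21 to 10.40 in *Ppara*-/- (median 10.34) and 10.25 to 10.32 in *Ppara*+/+ (median 10.29), with a log2 difference of 0.04 (95% interval -0.04 to 0.12, adjusted p = 0.65). *Phkb*, the β subunit, had signals of 8.97 to 9.08 (median 9.02) and 8.80 to 9.06 (median 8.93), with a log2 difference of 0.10 (95% interval -0.01 to 0.21, adjusted p = 0.37). All 6 *Ppara*-/- values of *Phkb* lay above the *Ppara*+/+ median but only 1 above the highest *Ppara*+/+ pup, replicate 7. *Phkg2*, the catalytic γ subunit, had signals of 9.44 to 9.59 (median 9.53) and 9.47 to 9.66 (median 9.51), a log2 difference of -0.02 (95% interval -0.12 to 0.08, adjusted p = 0.89) whose sign turned without *Ppara*+/+ replicate 7 (0.01).

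*Ppp1r3c*, the targeting subunit of protein phosphatase 1, had signals of 9.73, 9.84 and 9.92 at the lowest, median and highest *Ppara*-/- pup and of 9.88, 9.97 and 10.19 in *Ppara*+/+. Of the *Ppara*-/- pups 5 lay below every *Ppara*+/+ pup. The log2 difference of -0.16 (SE 0.0596, 95% interval -0.29 to -0.03) did not pass (adjusted p = 0.23), nor did it with any array left out (0.20 to 0.40). The *Ppara*+/+ values were spread by 2 females, replicates 7 (10.19) and 8 (10.08), and the difference was -0.12 without replicate 7.

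The pups did not differ alike across the 9 genes. *Ppara*-/- replicate 10 had the lowest signal of its genotype for 6 genes (*Pgm1*, *Gbe1*, *Pygl*, *Phka2*, *Phkb* and *Ppp1r3c*) and the highest for none, yet it was not the lowest for *Ugp2* or *Gys2*, where replicate 12 was. That replicate was at the same time the highest for *Gbe1* and *Phkb*. Of the *Ppara*+/+ pups, replicate 7 was highest for 4 genes (*Pygl*, *Phkb*, *Phkg2* and *Ppp1r3c*) and replicate 9 lowest for 4 (*Gys2*, *Pgm1*, *Phkg2* and *Ppp1r3c*). Pancreatic markers were highest in *Ppara*-/- replicate 6 (9.52), the pup with the highest *Ppara*-/- signal of *Ugp2* and *Phkg2*. In *Ppara*+/+ they were highest in replicate 9 (8.09). *Ppara*-/- replicate 10 was also 1 of the arrays with high pancreatic markers (8.72), and it had the highest erythroid level (11.51) of its genotype. Its Kupffer cell level (10.545) was the highest, close to replicate 11 (10.526). Its hepatocyte level (13.465) was the lowest but nearly equal to that of replicate 11 (13.466). *Ppara*+/+ replicate 7 had the lowest erythroid (11.23) and the highest Kupffer cell level (10.51) of its genotype. Its levels of liver endothelium (10.241) and hepatocytes (13.501) were also the highest, close to those of replicate 1 (10.226 and 13.497). The part of these cells in the positions of the pups was not tested. Without *Ppara*-/- replicate 10 the log2 differences were 0.12 for *Pygl*, 0.09 for *Gbe1*, 0.07 for *Phka2* and 0.11 for *Phkb*, and none of these passed.

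**Figure D3:**
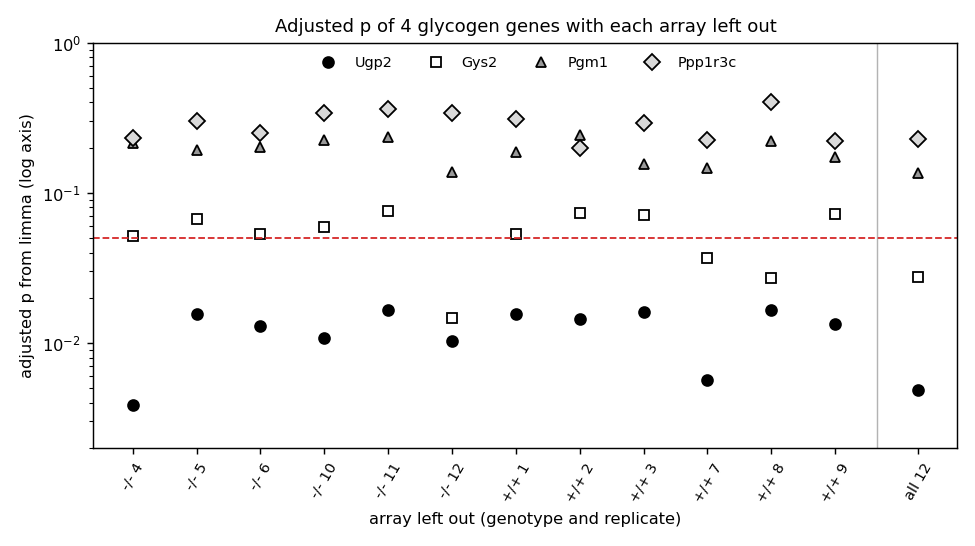
Adjusted p from limma (vertical log axis) for 4 of the genes when the array named on the horizontal axis was left out, with the fit of all 12 arrays at the right; the dashed line is 0.05. *Ugp2* stays below the line throughout (0.0039 to 0.017), *Gys2* lies above it for 9 of 12 arrays, and *Pgm1* and *Ppp1r3c* lie above it throughout.

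The sexes were compared next, since each genotype held 3 males and 3 females. *Ugp2* was higher in *Ppara*-/- pups by 0.32 in males and 0.27 in females, and *Gys2* by 0.26 and 0.19 on the log2 scale. With 3 pups per genotype no member passed within a sex, where 0.928% of all genes passed in males and 0.808% in females. The smallest adjusted p were 0.0887 and 0.155, both for *Ugp2*. *Pgm1* stood at -0.14 in males and -0.13 in females. *Ppp1r3c* had the widest gap, with -0.05 in males and -0.27 in females (adjusted p = 0.88 and 0.23). Its mean was 9.89 in *Ppara*-/- and 9.94 in *Ppara*+/+ males, and 9.77 in *Ppara*-/- and 10.05 in *Ppara*+/+ females. The difference between the sexes, 0.22 (SE 0.105, 95% interval -0.01 to 0.45), did not pass, and neither did that of any other member (adjusted p = 0.9999 for all 9 in limma, 0 with an unadjusted p under 0.05, where 1.79% of all genes had one). Male and female pups differed by -0.02 to 0.07 on the log2 scale over the 9 genes; again none passed, where 0.0401% of all genes did and 2.78% had an unadjusted p under 0.05.

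**Figure D4:**
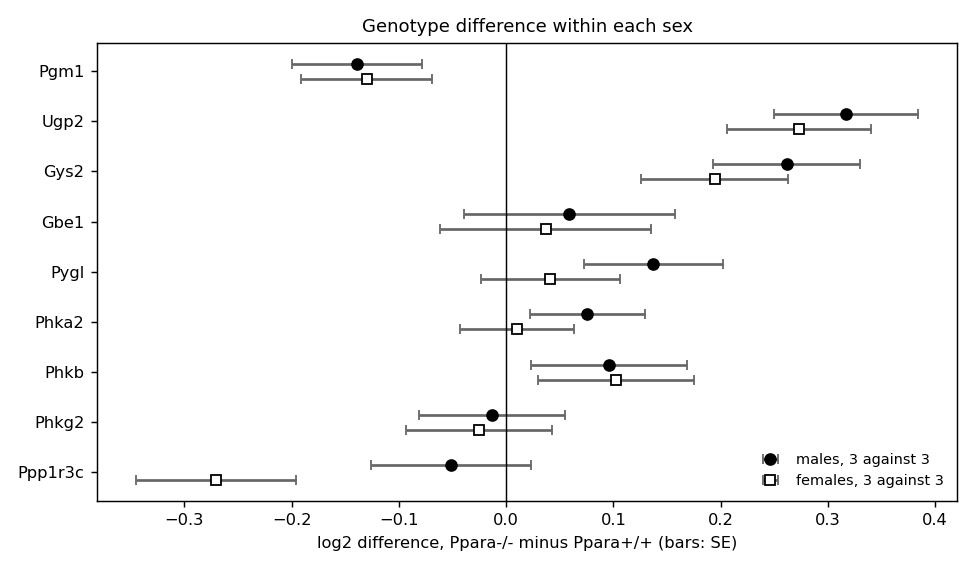
Log2 difference between genotypes (horizontal axis) within males (circles) and within females (squares) for the 9 genes, with bars for the SE from a fit of 4 groups of 3 pups. The pairs of points lie close together except for *Ppp1r3c*, at -0.05 in males and -0.27 in females, a gap that did not pass the test of interaction.

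Other genes of glycogen metabolism were read in the same fit, 57 measured of 62 listed. Of the 57 genes 3 rose and 1 fell, with a median log2 difference of 0.02, beside 1.99% higher and 1.12% lower among all genes. Among 11 enzymes and proteins bound to glycogen 2 rose and none fell. *Prkag2*, a γ subunit of the AMP-activated kinase, variants of which cause glycogen storage in the heart, rose 1.13-fold (9.04 to 9.21 in *Ppara*-/-, 8.88 to 9.01 in *Ppara*+/+, adjusted p = 0.0465). *Pgm3*, a mutase of the hexosamine pathway rather than of glycogen, rose 1.12-fold (10.03 to 10.18 against 9.86 to 10.01, adjusted p = 0.0499). Neither pair of ranges overlapped, as for 2.88% of all genes in this direction, and both calls were marginal. Leaving out any 1 array ended the call of *Pgm3*. The call of *Prkag2* held on leaving out only 2 of the 12, *Ppara*-/- replicate 10 or *Ppara*+/+ replicate 7. *Gyg*, glycogenin, which primes the chain, stood at 0.04 (95% interval -0.06 to 0.14), *Gaa*, the lysosomal glucosidase, at 0.05 and *Stbd1*, a glycogen-binding protein, at 0.22 (adjusted p = 0.0638).

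None of the 5 paralogs of the members used mainly in other tissues passed; *Gys1*, the muscle synthase, stood at 0.10 (95% interval -0.04 to 0.24), *Pygb*, the brain phosphorylase, at 0.12 (-0.04 to 0.27) and *Pygm*, the muscle phosphorylase, at 0.09 (-0.07 to 0.25). Of 11 subunits and inhibitors of protein phosphatase 1 only *Ppp1r1a*, an inhibitor of the phosphatase when phosphorylated, passed, beside 3.11% of all genes. It fell by 0.33 on the log2 scale, with signals of 6.99 to 7.27 in *Ppara*-/- and of 7.33 to 7.61 in *Ppara*+/+ pups (adjusted p = 0.0166 in limma). The ranges did not overlap, as for 1.43% of all genes in this direction. Its *Ppara*-/- mean, 7.11, lay below the array medians. *Ppp1r3b*, the main targeting subunit of liver, stood at -0.09 (95% interval -0.25 to 0.07), and *Ppp1r3g*, one that responds to feeding, at 0.32 with a wide interval (0.04 to 0.61, adjusted p = 0.26). The 17 measured kinases and calmodulins held no call, with log2 differences of -0.12 to 0.22; nor did the 7 hormone receptors, at -0.05 to 0.24. Among them *Avpr1a*, a vasopressin receptor, stood at 0.24 (95% interval 0.08 to 0.40, adjusted p = 0.135) and *Adra1b*, an adrenergic receptor, at 0.15 (0.06 to 0.23, adjusted p = 0.0837), while *Gcgr*, the glucagon receptor, stood at -0.01 and *Insr*, the insulin receptor, at -0.05.

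At the entry and exit of glucose, 1 of 6 measured genes rose, beside 1.99% of all genes. *Slc37a4*, which moves glucose 6-phosphate into the endoplasmic reticulum, ran from 11.02 to 11.27 in *Ppara*-/- pups and from 10.71 to 10.96 in *Ppara*+/+ pups. The ranges did not overlap, as for 2.88% of all genes in this direction (log2 difference 0.38, SE 0.055, adjusted p = 0.0031 in limma). *G6pc*, which frees glucose from it, stood at 0.21 (adjusted p = 0.0623) and *Slc2a2*, the glucose transporter of hepatocytes, at 0.16 (adjusted p = 0.166).

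**Figure D5:**
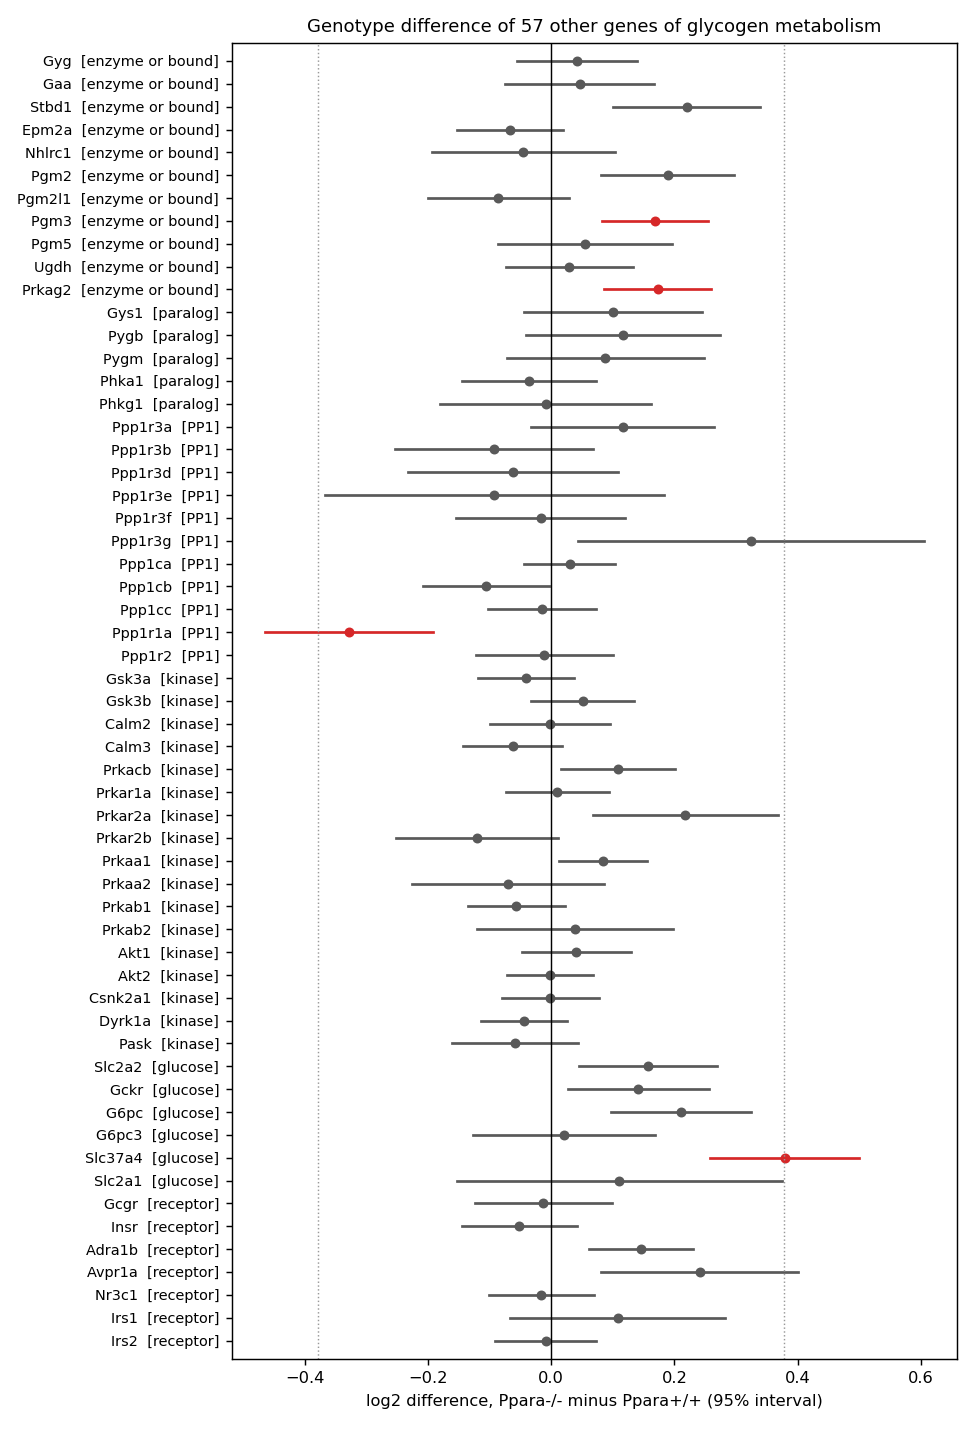
Log2 difference between genotypes (horizontal axis) with 95% intervals for 57 other genes of glycogen metabolism, by group; red marks an adjusted p under 0.05 and dotted lines a change of 1.3-fold. *Pgm3*, *Prkag2* and *Slc37a4* were higher, *Ppp1r1a* was lower, and *Slc37a4* (0.38) lies at the dotted line.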

How the data were processed

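RNA of whole liver was hybridised to Affymetrix MoGene 1.0 ST arrays. Per the labels, the authors summarised the arrays by RMA (robust multi-array average; version not given in the sources used here), which corrects background, normalizes across arrays and pools the probes of a probe set. The deposited values are the resulting log2 signals of 35556 probe sets on 12 arrays and were used unchanged. Of the probe sets, 21789 name 1 gene, 1621 several and 12146 none here. Arrays correlated with each other at 0.989 to 0.996. Precision is limited by having 6 arrays per genotype.

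Each gene is represented by 1 probe set, the one of highest mean that names no other gene. Genotype and sex were fitted to every probe set with limma 3.58.1 in R 4.3.3 (lmFit and eBayes, 9 residual and 2.49 prior degrees of freedom), with Benjamini-Hochberg adjustment over all probe sets and a threshold of 0.05. Interaction and within-sex contrasts came from a fit of 4 groups. Lists were described by counts and medians only. The members and lists were chosen with earlier results of these data known. Named were the members, 12 fixed genes of the pathway where measured, and list genes past the threshold, up to 5 per direction; *Pgm2*, *Stbd1*, *Gcgr*, *Insr*, *Avpr1a* and *Adra1b* were named after their values were seen. The calculation was tested on simulated data. Promoter windows of RefSeq (GRCm38.p6) were searched for fixed motifs on both strands. In all 25 alternatives were run for the genotype difference, 1 of them, without *Ppara*-/- replicates 6 and 10, added afterwards.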

Additional observations from a re-analysis of the deposited data

Results flagged for a closer look

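Of 32 groups of 6 pups examined (16 genes in each genotype), 1 held a pup set far apart from the rest, where chance gives about 5% of such groups. *Slc37a4* stood at 11.02 in *Ppara*-/- replicate 10, below the next pup at 11.20 and the highest at 11.27, a gap of 72.0% of the range. This array also had the lowest *Ppara*-/- signal for 6 of the 9 glycogen genes and high pancreatic acinar markers. None of the 9 glycogen genes held such a pup.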

How the results depend on the processing

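No paired analysis was possible because the labels do not say which pups were littermates. The 2 higher members became 0 under a 1.3-fold minimum, 0 under a log2 change beyond 1.3 and 0 by the exact Mann-Whitney test after adjustment (2 higher and 2 lower members without adjustment); they became 1 without *Ppara*-/- replicates 6 and 10 together (*Ugp2*, adjusted p = 0.0291), and ran from 1 to 2 with single arrays left out. No member was called lower in limma or the Mann-Whitney test under any alternative. The 3 higher genes among the 57 others became 1 with a fit of 4 groups, 7 with dim probe sets (below the 40th percentile) left out, 6 with probe sets of 1 gene only, 6 with a robust variance trend, 7 with array weights, 1 above 1.3-fold, 0 beyond a log2 change of 1.3, 0 with the Mann-Whitney test and 1 without *Ppara*-/- replicates 6 and 10, and ran from 1 to 5 with single arrays left out: 1 on dropping *Ppara*-/- replicate 5, 6, 11 or 12, likewise *Ppara*+/+ replicate 1, 2, 3 or 9, and 5 without *Ppara*+/+ replicate 7. The 1 lower gene became 0 under both minimum changes, 0 with the Mann-Whitney test and 0 without *Ppara*-/- replicates 6 and 10. At an unadjusted p under 0.05, limma and the Mann-Whitney test each gave 14 higher and 2 lower of the 57, where limma gave 17.2% of all genes in either direction. The cause was not tested, except that a minimum change removes calls by construction. The Mann-Whitney test called no gene of the array after adjustment. Its smallest possible p with 6 against 6 pups, 0.0022, became 0.0691, so its 0 counts do not set these genes apart. For 16 of the genes named (the 9 members, *Ppara*, *Prkag2*, *Pgm3*, *Ppp1r1a*, *Slc37a4*, *G6pc* and *Stbd1*), 58 of 400 single-gene results under the alternatives ended a call and 9 gave one, and no called difference changed sign. The interaction count stayed at 0 in the 16 alternatives run. Quantile normalization and median centring moved the median over all probe sets by under 0.01.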
